A study of Rattus norvegicus with 6 samples.

Results

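The genes described here encode acute phase proteins of the liver and the chains of fibrinogen. They are Saa1, Saa2, Orm1, Orm2, Hp, Hpx, Lcn2, Fga, Fgb and Fgg, taken from a list of symbols with no threshold on a measured value. The list was drawn up with earlier results of these data known. All 10 symbols were found in the deposited table of 32930 genes, each on 1 row, and all 10 were among the 18455 genes that passed the expression filter and were tested.

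Liver RNA was sequenced from 3 animals of the HFD group and 3 animals of the HTG group. The HFD group had a high-fat diet with 0.5% CMC-Na as the vehicle, and the HTG group had the same diet with HTG, the Huazhuo Tiaozhi granule, a herbal formula. The labels give 12 weeks for both interventions, and 1 label field of the HTG libraries reads HCG in place of HTG. Both groups were thus fed the high-fat diet, and no liver from a normal diet was analysed here. The labels name rats, the study's RNA-seq methods name dyslipidaemic C57BL/6 J mice, and the identifiers in the table are those of mouse genes in Ensembl, which is how they were read here. No age is given in the sources used here for these animals.

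The acute phase response is the change in liver protein synthesis that follows infection, injury or other inflammation. Interleukin-6 and interleukin-1 reach hepatocytes from immune cells and act through STAT3, C/EBP and NF-kappaB factors, and the liver then secretes more of some plasma proteins and less of others, such as albumin. Serum amyloid A is the most inducible of these proteins in mice, while haptoglobin, hemopexin and fibrinogen are already abundant in the resting liver.

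The acute phase genes differed more between the HTG livers than between the groups. Every one of the 10 genes was highest in HTG library 3, and 8 of them were lowest in HTG library 2, with the HFD libraries in between. The fitted value was above 0 in the HTG group for all 10 genes, against 51.6% of all genes tested, but none differed between the groups at an unadjusted p under 0.05 in edgeR's quasi-likelihood test, where 24.7% of all genes tested did (12.3% higher and 12.4% lower). With limma on log2(FPKM + 0.1) and all 6 libraries, 5 of the 10 were below 0: Saa1 (-0.29), Saa2 (-0.18), Hpx (-0.000691), Lcn2 (-0.05408) and Fga (-0.23). None had an adjusted p under 0.05 in edgeR's quasi-likelihood test either, against 0.0108% of all genes tested. In no member were the groups separate, against 32.1% of all genes tested whose groups did not overlap. In bulk liver RNA, fewer cells of a type and less RNA per cell cannot be told apart.

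The libraries held between 50648778 and 90563477 counts, the fewest in HTG library 3 and the most in HTG library 2. Levels are given as CPM, counts relative to the library total after TMM scaling between libraries, and comparisons between genes as FPKM, which also divides by transcript length. The share of counts from the mitochondrial chromosome was between 4.97% and 6.45% in the HFD libraries and was 9.31%, 15.2% and 13.2% in HTG libraries 1, 2 and 3. Among the 1193 genes with a mean of at least 100 CPM, HTG library 2 was the lowest of the 6 libraries in 40.7% and HTG library 3 the highest in 12.5%. The part of depth and of the mitochondrial share in the results below was not tested. All 8 hepatocyte markers were detected in all 6 libraries, above 12 counts, with a summed level of 73538 to 91146 CPM in the HFD group and 65056 to 66342 CPM in the HTG group. Most of each sum was Alb, at 57854 to 74503 CPM (HFD) and 53506 to 55201 CPM (HTG), and the single markers were not alike. Ttr had 5063 to 5106 CPM in the HFD livers, against 4833, 6018 and 5045 CPM in HTG libraries 1, 2 and 3. For Cps1 these values were 2049 to 3991, against 921, 845 and 923 CPM, and for Cyp3a11 752 to 1218, against 829, 888 and 197 CPM. Tat (807, 372 and 1011 CPM) and Pck1 (1840, 1256 and 2314 CPM in HTG libraries 1, 2 and 3) were highest of the HTG group in HTG library 3. Apob (2124, 1232 and 1476 CPM) and F9 (195, 131 and 176 CPM) were highest of the HTG group in HTG library 1. Tat, Pck1, Apob and F9 were each lowest of the 6 libraries in HTG library 2.

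Saa1 and Saa2 encode the acute phase forms of serum amyloid A, which ride on high-density lipoprotein in plasma. They are close paralogs whose counts could be split between both, and they lie on chromosome 7 on opposite strands (Saa1, ENSMUSG00000074115, 46389921 to 46392404; Saa2, ENSMUSG00000057465, 46401214 to 46403737, as the table lists them). Saa1 had 1685, 2726 and 1570.1 CPM in HFD libraries 1 to 3, against 2827, 172 and 8912 CPM in HTG libraries 1, 2 and 3. For Saa2 the values were 1590.2, 2092 and 1521 CPM in the HFD livers, against 2566, 106 and 14059.9 CPM in the HTG libraries. Both genes thus had the lowest and the highest value of the series within the HTG group, and HTG library 1 lay above the HFD range. HTG library 3 exceeded HTG library 2 by 51.9-fold for Saa1 and 132-fold for Saa2, while the HFD libraries differed among themselves by at most 1.74-fold and 1.38-fold. Of Saa2, 10379 counts were read in HTG library 2 and 658608 in HTG library 3, although the latter held fewer counts in all. The group means were 1993 ± 637 and 3970.1 ± 4481 CPM for Saa1, and 1734 ± 311 and 5577 ± 7448 CPM for Saa2 (HFD and HTG, SD, n = 3 per group). The SD of the HTG group was larger than its mean for both genes. The log2 fold change was 0.99 for Saa1 (95% interval -1.27 to 3.26) and 1.69 for Saa2 (95% interval -1.02 to 4.39), with adjusted p-values of 0.568 and 0.414 from edgeR's quasi-likelihood test.

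Orm1 and Orm2 encode orosomucoids, or alpha-1-acid glycoproteins, which bind drugs and lipids in plasma. They lie next to each other on chromosome 4 (Orm1, ENSMUSG00000039196, 63262797 to 63266400; Orm2, ENSMUSG00000061540, 63280686 to 63284115) and, like the serum amyloid A genes, are paralogs that could share counts. Orm1 had 2608, 2877 and 2398.5 CPM in the HFD livers, against 3885, 1455 and 7188 CPM in HTG libraries 1, 2 and 3. Orm2 had 818, 813 and 877 CPM in the HFD livers, against 927, 282 and 4264 CPM in HTG libraries 1, 2 and 3. The HFD livers were nearly alike in Orm2, with a range of 1.08-fold, and the HTG livers spanned 15.1-fold. For Orm1 the HTG livers spanned 4.94-fold, and for both genes HTG library 2 was below and HTG library 3 above every HFD library. By FPKM, HTG library 1 lay within the HFD range for Orm2, at 1116 against 948 to 1124. The log2 fold change was 0.67 for Orm1 (standard error 0.49) and 1.13 for Orm2 (standard error 0.79), with adjusted p-values of 0.436 and 0.412 from edgeR's quasi-likelihood test.

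**Figure D1:**
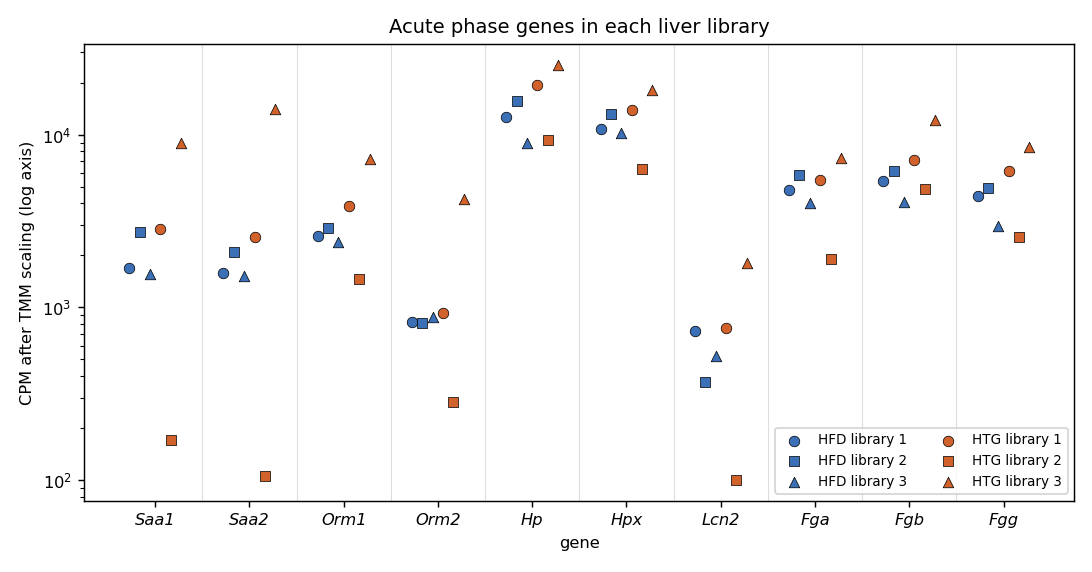
CPM after TMM scaling (log axis) of the 10 acute phase genes, with 1 point per library, HFD in blue and HTG in orange. HTG library 3 is the highest point for every gene, and HTG library 2 is the lowest for all but Hp and Fgb, at 106 CPM for Saa2 and 100.05 CPM for Lcn2.

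Hp encodes haptoglobin, which captures free haemoglobin, and Hpx encodes hemopexin, which captures free haem. Hp (ENSMUSG00000031722, chromosome 8, 110301760 to 110305804) had 12627, 15707.5 and 8954 CPM in the HFD livers, against 19402, 9273 and 25427 CPM in HTG libraries 1, 2 and 3. Hpx (ENSMUSG00000030895, chromosome 7, 105240820 to 105249344) had 10838, 13154.5 and 10236 CPM in the HFD livers, against 13928, 6329.5 and 18136 CPM in the HTG libraries. They varied less than serum amyloid A, with 2.74-fold and 2.87-fold between the highest and the lowest HTG library. Hp is one of the 2 members in which HFD library 3, and not HTG library 2, was the lowest of all. Both are among the most abundant genes of these livers per length. By FPKM, Hp ranked 3, 2 and 7 in HFD libraries 1 to 3, against 4, 18 and 3 in HTG libraries 1, 2 and 3, among the 18455 genes tested. Hpx ranked between 4 and 5 in the HFD livers, against 8, 24 and 10 in the HTG libraries. The log2 fold changes were 0.54 (95% interval -0.39 to 1.47) and 0.17 (95% interval -0.72 to 1.05), with adjusted p-values of 0.447 and 0.825 from edgeR's quasi-likelihood test.

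Lcn2 (ENSMUSG00000026822, chromosome 2, 32274645 to 32277809) encodes lipocalin 2, which binds bacterial siderophores and is made by stimulated hepatocytes and by neutrophils. It had 727, 371 and 521 CPM in the HFD livers, against 759.7, 100.05 and 1807 CPM in HTG libraries 1, 2 and 3. It was the least abundant member per length, with a mean of 201 ± 75.2 FPKM in the HFD group and 303 ± 282 FPKM in the HTG group (SD, n = 3 per group). HTG library 3 exceeded HTG library 2 by 18.1-fold, and the HFD libraries spanned 1.96-fold, the widest HFD range of the 10 genes. The 10 neutrophil markers were all detected, with summed levels of 58.9, 113 and 79.4 CPM in the HFD livers, against 40.8, 65.9 and 119 CPM in HTG libraries 1, 2 and 3. HTG library 3 was the highest of all 6 libraries in both the sum and Lcn2, while HTG library 1 had the lowest sum and HTG library 2 the lowest Lcn2. The single markers were not alike: S100a8, S100a9, Ly6g, Retnlg and Mmp8 were highest in HTG library 3. Mpo and Cxcr2 were highest in HTG library 2, and Elane, Ngp and Camp in HFD library 2. The part of neutrophils in the result was not tested. The log2 fold change of Lcn2 was 0.72 (standard error 0.79, adjusted p = 0.606, edgeR's quasi-likelihood test).

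Fga, Fgb and Fgg encode the alpha, beta and gamma chains of fibrinogen, which hepatocytes assemble in equal numbers into the clotting protein. The table places the 3 genes side by side on chromosome 3, Fgg at 82915031 to 82922356 (ENSMUSG00000033860), Fga at 82933383 to 82940934 (ENSMUSG00000028001) and Fgb at 82947448 to 82957170 on the opposite strand (ENSMUSG00000033831). Fga had 4797, 5859 and 4002 CPM in the HFD livers, against 5487, 1913 and 7351 CPM in HTG libraries 1, 2 and 3. For Fgb the levels were 5415, 6174 and 4066 CPM in the HFD livers, against 7158, 4824 and 12122 CPM in the HTG libraries. Fgg had 4411, 4911 and 2966 CPM in the HFD livers, against 6155, 2547 and 8522 CPM in the HTG libraries. All 3 chains shared the order HTG library 3, 1, 2 within the HTG group, and the span was 3.84-fold for Fga, 2.51-fold for Fgb and 3.35-fold for Fgg. The groups overlapped for every chain. Fga had nearly equal group means, 4886 ± 932 CPM in the HFD group and 4917 ± 2763 CPM in the HTG group (SD, n = 3 per group). The fitted value for Fga was 0.01 on the log2 scale, and its interval (95%, -1.02 to 1.04) leaves room for a change of about 2-fold either way. The log2 fold change was 0.62 for Fgb (standard error 0.37) and 0.49 for Fgg (standard error 0.43), with adjusted p-values of 0.336 and 0.517 from edgeR's quasi-likelihood test.

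Ratios within a library do not depend on the scaling between libraries, and 5 ratios between paralogs or chains were compared. By FPKM, the ratio of Fgb to Fga was 0.892, 0.833 and 0.803 in HFD libraries 1 to 3, against 1.03, 1.99 and 1.3 in HTG libraries 1, 2 and 3. The ratio of Fgg to Fga was 1.32, 1.21 and 1.07 in the HFD livers, against 1.61, 1.91 and 1.67 in the HTG libraries. Neither ratio overlapped between the groups, with the HTG livers higher, so the Fga transcript made up a smaller part of the fibrinogen mRNA in each HTG liver, HTG library 2 and HTG library 3 included. The means were 0.842 ± 0.0454 and 1.44 ± 0.495 for Fgb to Fga, and 1.2 ± 0.128 and 1.73 ± 0.16 for Fgg to Fga (HFD and HTG, SD, n = 3 per group). Each had a two-sided exact permutation p of 0.1, the smallest that 3 libraries against 3 allow, and 0.25 when adjusted over the 5 ratios (Benjamini-Hochberg). The ratio of Fgb to Fgg overlapped between the groups, from 0.674 to 0.753 in the HFD group and from 0.639 to 1.04 in the HTG group (exact permutation p = 0.6). HTG library 2 stood apart in both ratios that involve Fgb, which was the chain least low in that library.

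Between paralogs the groups overlapped. The ratio of Saa2 to Saa1 was 0.929, 0.755 and 0.953 in the HFD livers, against 0.893, 0.608 and 1.55 in HTG libraries 1, 2 and 3 (exact permutation p = 0.9). The ratio of Orm2 to Orm1 was 0.314, 0.282 and 0.366 in the HFD livers, against 0.239, 0.194 and 0.593 in the HTG libraries (exact permutation p = 1). In HTG library 3, where both pairs were most abundant, Saa2 exceeded Saa1 and the share of Orm2 was at its highest. In HTG library 2, where both pairs were least abundant, both ratios were at their lowest. The ratio of Hp to Hpx, which was chosen after the values were seen, was 1.09, 1.11 and 0.816 in the HFD livers, against 1.3, 1.37 and 1.31 in the HTG libraries. Its groups did not overlap, and as a choice made on the values it is given without a test.

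**Figure D2:**
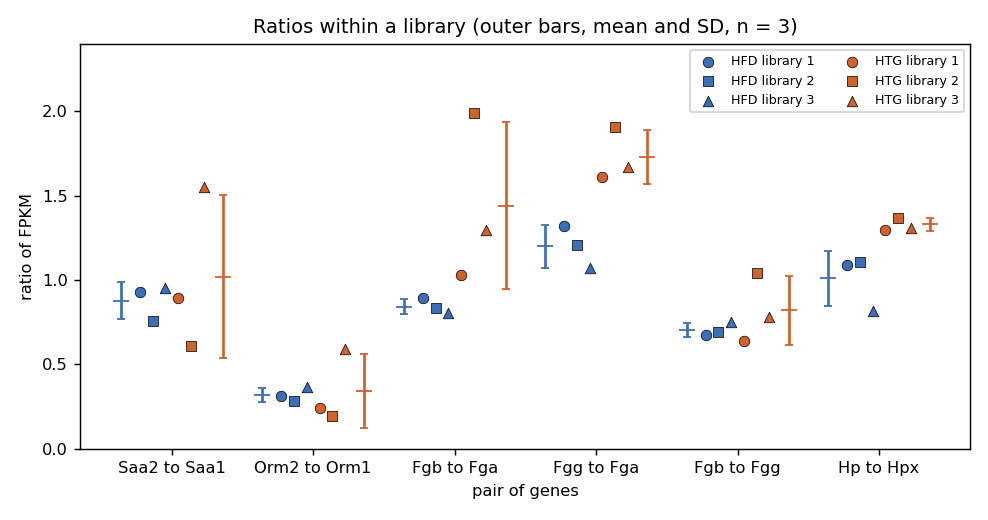
Ratio of FPKM between 2 genes of the same library, with 1 point per library, HFD in blue and HTG in orange, and the mean and SD of each group (n = 3) at the outer sides. Fgb to Fga and Fgg to Fga are higher in every HTG library than in any HFD library, as is Hp to Hpx, a pair chosen after the values were seen, and Fgb to Fgg, Saa2 to Saa1 and Orm2 to Orm1 overlap.

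The order of the HTG livers was shared by the whole group of genes. HTG library 3 was above HTG library 1, and HTG library 1 above HTG library 2, in 10 of the 10 genes, against 14.4% of all genes tested and 14.8% of those with a mean of at least 100 CPM. HTG library 3 had at least 2 times the CPM of HTG library 2 in 10 of the 10 genes, against 8.49% of all genes tested and 5.2% of those with a mean of at least 100 CPM. The 8 genes that were both highest in HTG library 3 and lowest in HTG library 2 compare with 1.77% of all genes tested and 3.69% of those with a mean of at least 100 CPM. The members were measured in the same libraries, so they are not independent of each other. The median SD of log2 CPM over the 10 genes was 1.09 within the HTG group and 0.292 within the HFD group, while over all genes tested it was 0.323 and 0.351. Over the genes with a mean of at least 100 CPM it was 0.28 within the HTG group and 0.245 within the HFD group. Among the 1193 genes with a mean of at least 100 CPM, Saa2 had the largest SD of log2 CPM within the HTG group (3.58) and Saa1 the rank 3 (2.93). Lcn2 had the rank 6 (2.14) and Orm2 the rank 9 (1.96), and Fgb had the lowest standing of the members, rank 108 (0.667). Within the HFD group the ranks of the 10 genes ran from 194 for Lcn2 to 1136 for Orm2.

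**Figure D3:**
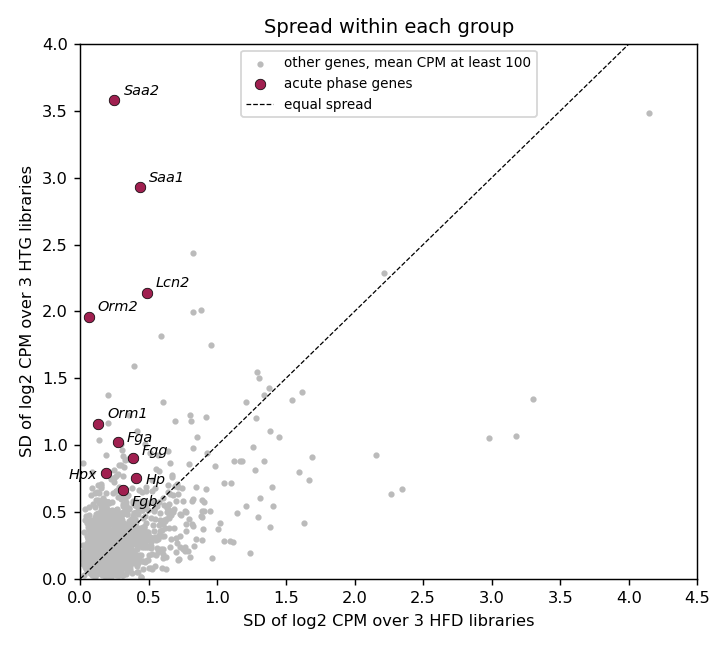
SD of log2 CPM over the 3 HFD libraries (horizontal axis) and over the 3 HTG libraries (vertical axis) for genes with a mean of at least 100 CPM, with the 10 acute phase genes in red and the dashed line marking equal spread. All 10 acute phase genes lie above the line, Saa2 at 0.249 and 3.58, against 55.2% of all genes with a mean of at least 100 CPM.

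Together the 10 genes took 4.74%, 5.14% and 3.81% of all counts in HFD libraries 1 to 3, against 6.26%, 2.91% and 9.97% in HTG libraries 1, 2 and 3. The mean was 4.57% ± 0.682 in the HFD group and 6.38% ± 3.53 in the HTG group (SD, n = 3 per group). Serum amyloid A made up 2.12% of the counts of HTG library 3 and 0.03% of those of HTG library 2, against 0.318% to 0.453% in the HFD libraries. The fibrinogen chains took 2.59% and 1% of those libraries and between 1.13% and 1.59% of the HFD libraries, so their share moved far less.

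Single HTG libraries decided how the groups compared. Without HTG library 2, 8 of the 10 genes were higher in the HTG group at an unadjusted p under 0.05, where 8.07% of all genes tested were higher and 8.09% lower (edgeR's quasi-likelihood test). These were Saa1, Saa2, Orm1, Orm2, Hp, Lcn2, Fgb and Fgg, with log2 fold changes from 0.84 for Fgg to 2.26 for Saa2. Hpx (0.49) and Fga (0.39) were not among them, and no member had an adjusted p under 0.05, the smallest being 0.202 for Saa2. Without HTG library 3 the picture turned: 6 of the 10 fitted values were below 0, their median was -0.238, and no member had an unadjusted p under 0.05, where 9.2% of all genes tested were higher and 8.7% lower. Saa1 was then at -0.39, Saa2 at -0.36, Orm2 at -0.46, Fga at -0.39, Lcn2 at -0.32 and Hpx at -0.16. With all 6 libraries the median over the members was 0.645, against 0.025 over all genes tested. With limma on log2(FPKM + 0.1) the median over the members was 0.133, against -0.068 over the genes tested there. Leaving out HTG library 1 or any HFD library kept the median between 0.534 and 0.735 and left no member with an unadjusted p under 0.05.

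**Figure D4:**
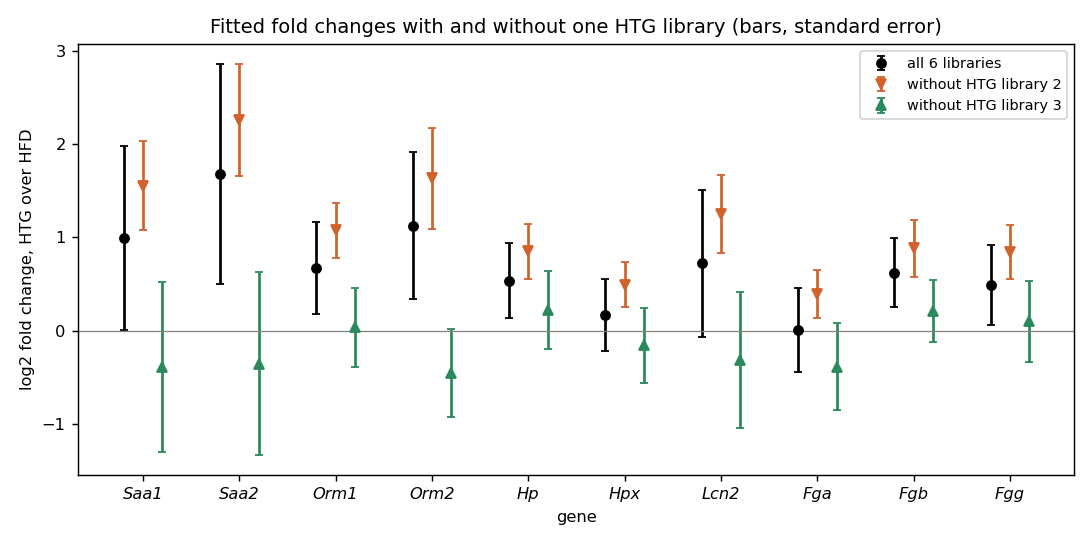
Fitted log2 fold change of HTG over HFD with its standard error for each gene, from all 6 libraries (black), without HTG library 2 (orange) and without HTG library 3 (green). Saa2 moves from 1.69 with all libraries to 2.26 without HTG library 2 and to -0.36 without HTG library 3.

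Further genes that rise in the acute phase were described from a list of 22 genes, all of which were tested. At an unadjusted p under 0.05, 4 were higher in the HTG group, 1 was lower and 17 were neither. Their log2 fold changes had a median of 0.28. Over all genes tested, 12.3% were higher and 12.4% lower at that threshold. By edgeR's quasi-likelihood test the adjusted p of all 22 was above 0.05. Hamp2, a gene of the hepcidin family, had 1.82, 2.73 and 3.51 CPM in the HFD livers, against 6.16, 5.94 and 5.59 CPM in the HTG libraries, and its groups did not overlap (log2 fold change 1.14, adjusted p = 0.0716). Saa4, the constitutive serum amyloid A gene, had 354, 169.8 and 153 CPM in the HFD livers, against 513, 338 and 649 CPM in the HTG libraries (log2 fold change 1.15, adjusted p = 0.115). Unlike Saa1 and Saa2, Saa4 in HTG library 2 was within the HFD range. Orm3 had 55.3, 12.4 and 33 CPM in the HFD livers, against 62.2, 47.8 and 200.2 CPM in the HTG libraries (log2 fold change 1.62, adjusted p = 0.169), and as a paralog of Orm1 and Orm2 it could share their counts.

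The other gene of the list that was higher was Hamp, which encodes hepcidin, the regulator of iron export, and the lower one was Serpina3m, a serine protease inhibitor. Hamp had 113, 509 and 22 CPM in the HFD livers, against 1439.8, 872 and 600.2 CPM in HTG libraries 1, 2 and 3, so its groups did not overlap and HTG library 3 was the lowest of its group (log2 fold change 2.18, adjusted p = 0.191, edgeR's quasi-likelihood test). Serpina3m had 337, 436 and 403 CPM in the HFD livers, against 262, 74.9 and 176 CPM in the HTG libraries (log2 fold change -1.20, adjusted p = 0.12, edgeR's quasi-likelihood test). C3, the central complement component and the most abundant of the list, had 9456 ± 1947 CPM in the HFD group and 6151 ± 2584 CPM in the HTG group (SD, n = 3 per group, adjusted p = 0.333, edgeR's quasi-likelihood test). The count of higher genes was 8 without HTG library 2, 2 without HTG library 3, HFD library 2 or HFD library 3, and 3 without either other library. The count of lower genes was 4 without HTG library 3 and 2 without HTG library 1. Over all genes tested in those fits, 8.07% were higher and 8.09% lower without HTG library 2, and 9.2% and 8.7% without HTG library 3. The share in either direction was 25.7% without HTG library 1 and 22.3%, 20.3% and 20.5% without HFD libraries 1, 2 and 3. These shares also stand beside the counts of the same fits in the lists below. The order HTG library 3, 1, 2 of the acute phase genes was also that of Saa4, Orm3, Crp, Apcs, Itih3, Itih4, Cp and Serpina3n. Fgl1, Mt1, Mt2, Steap4, Il1rn, Ltf and Cd14 had this order too. Saa3, Serpina3m, Lbp, Hamp, Hamp2, C3 and Cfb had another order. Over all genes tested, 14.4% had the order HTG library 3, 1, 2.

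Of 7 genes that fall in the acute phase, 1 was higher in the HTG group at an unadjusted p under 0.05 and none was lower. These counts compare with 12.3% and 12.4% of all genes tested. The 7 genes had a median of -0.27 on the log2 scale. The higher one was Apoa1, which encodes apolipoprotein A-I and is also a gene of lipid transport, with 7818, 6926 and 6734 CPM in the HFD livers, against 14772, 17908 and 17892 CPM in the HTG libraries. Apoa1 did not separate HTG library 2 from HTG library 3. Without HTG library 1, Rbp4, which encodes the plasma carrier of retinol and was named after its values were seen, was also lower at that threshold. Alb, which encodes albumin, had 57854, 66091 and 74503 CPM in the HFD livers, against 53506, 54429 and 55201 CPM in the HTG libraries. Every HTG library was below every HFD library for Alb, and HTG libraries 2 and 3 were close to each other (log2 fold change -0.28, adjusted p = 0.555, edgeR's quasi-likelihood test). Within the HTG group, Trf and Ahsg had the order of the acute phase genes, HTG library 3, 1, 2, and both were lowest of all libraries in HTG library 2. The other genes of this list had another order. That order was found in 14.4% of all genes tested.

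Among 12 cytokines and receptors that drive the response, 11 were tested, and an unadjusted p under 0.05 was found for 2 that were higher and 2 that were lower. These counts compare with 12.3% and 12.4% of all genes tested. Il6, the main inducer, had no more than 12 counts (3 fragments, the most that an empty gene allows) in any library and was not tested. Il6ra, the receptor chain for interleukin-6, had 65.6, 59.5 and 62.7 CPM in the HFD livers, against 45, 31.4 and 34 CPM in the HTG libraries (log2 fold change -0.77, adjusted p = 0.0651, edgeR's quasi-likelihood test). Lifr, the receptor for leukaemia inhibitory factor, had 85.3, 107 and 88.5 CPM in the HFD livers, against 142, 152 and 160.4 CPM in the HTG libraries (log2 fold change 0.69, adjusted p = 0.0717). Il1r1, the interleukin-1 receptor, had 111, 104 and 49 CPM in the HFD livers, against 122, 132 and 269.9 CPM in the HTG libraries (log2 fold change 0.99, adjusted p = 0.172). In these receptors HTG library 2 was on the same side of the HFD libraries as the other HTG libraries. They were named for an unadjusted p under 0.05, which favours such genes, so this is no contrast with the acute phase genes. Osmr, a receptor of the same list, had 8.03, 5.23 and 6.61 CPM in the HFD livers. In HTG libraries 1, 2 and 3 Osmr had 11, 5.43 and 17.5 CPM, which is the order of the acute phase genes. Tnfrsf1a had this order too, as did Il1b, in which HTG libraries 1 and 3 were nearly equal. The other tested genes of the list had another order. Of all genes tested, 14.4% had the order of the acute phase genes. Lif itself was at or under 12 counts in HFD library 1 and in HTG libraries 1 and 3, had 18 counts in HTG library 2, and had 3.54 and 3.86 CPM in HFD libraries 2 and 3. The count of higher genes was 1 without HFD library 3 or HTG library 3 and 3 without HTG library 2, and that of lower genes was 3 without HTG library 3.

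Of 15 transcription factors and feedback genes, 1 was higher at an unadjusted p under 0.05 and none was lower, against 12.3% and 12.4% of all genes tested. The higher one was Socs3, the feedback inhibitor that STAT3 induces. Socs3 had 33.2, 31.3 and 12.4 CPM in the HFD livers, against 53.1, 117 and 247.9 CPM in HTG libraries 1, 2 and 3. Every HTG library was above every HFD library, with a log2 fold change of 2.44 (standard error 0.58, adjusted p = 0.0629, edgeR's quasi-likelihood test). The order of Socs3 within the HTG group, library 3, 2, 1, was not that of the acute phase genes: HTG library 2 had more Socs3 than any HFD library and the least Saa1 and Saa2 of all. Stat3 had 126, 143 and 133 CPM in the HFD livers, against 118, 74.6 and 130.1 CPM in the HTG libraries, so HTG library 2 was the lowest (log2 fold change -0.32). Within the HTG group, Stat3, Cebpb, Cebpd and Nr3c1 had the order of the acute phase genes, and the other genes of the list did not. Hnf4a, a hepatocyte identity factor and the most abundant of the list, had 662 ± 364 and 404 ± 90.7 CPM (HFD and HTG, SD, n = 3 per group, adjusted p = 0.282, edgeR's quasi-likelihood test). Without HFD library 2 the count of higher genes was 2, and without HFD library 3 the count of lower genes was 1.

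Of 10 genes for receptors and partners of these proteins, none was higher and 2 were lower at an unadjusted p under 0.05. These counts compare with 12.3% and 12.4% of all genes tested. F13b, which encodes the carrier subunit of the fibrin cross-linking factor XIII, had 129, 161 and 167.5 CPM in the HFD livers, against 79.8, 55.5 and 63.9 CPM in the HTG libraries (log2 fold change -1.20, adjusted p = 0.0542, edgeR's quasi-likelihood test). Hmox1, the haem oxygenase that breaks down haem delivered by hemopexin, had 69.7, 70.9 and 61.1 CPM in the HFD livers, against 59.2, 38 and 42 CPM in the HTG libraries (log2 fold change -0.53, adjusted p = 0.157). In neither gene did the groups overlap. Plg, which encodes plasminogen, had 2386 ± 174 and 2039 ± 477 CPM (HFD and HTG, SD, n = 3 per group). The count of lower genes was 3 without HTG library 1 and 1 without HFD library 1, HFD library 2, HTG library 2 or HTG library 3. With HTG library 1 left out, where 3.38% of all genes tested had an adjusted p under 0.05 (653 genes), 4 genes of these lists passed it: Apoa1 (0.0435), Il6ra (0.0454), Socs3 (0.0435) and F13b (0.0414), by edgeR's quasi-likelihood test.

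The genes whose profile over the 6 libraries was most like that of the serum amyloid A pair were Mt2, Lcn2, Orm2, Mt1 and Gm45774, out of 8012 with a mean of at least 10 CPM. Likeness was the root mean square difference between log2 profiles centred on their means, 0.746 for Mt2 and 0.99 for Gm45774. It was 0.205 for each of Saa1 and Saa2, which form the mean profile themselves, so their value is not comparable with those of other genes. Mt1 and Mt2 encode metallothioneins, which bind zinc and copper. Mt2 had 189, 356 and 115 CPM in the HFD livers, against 624, 40.95 and 899 CPM in HTG libraries 1, 2 and 3. Mt1 had 474, 788 and 233 CPM in the HFD livers, against 1207, 137 and 1827 CPM in the HTG libraries. Both were lowest in HTG library 2 and highest in HTG library 3. For the fibrinogen chains the nearest genes were Serpina10 (0.112), Hp (0.137), Hpx (0.15), Gimap9 (0.165) and Creld2 (0.184). The chains themselves were at 0.0856 (Fgg), 0.221 (Fgb) and 0.244 (Fga) from their mean profile, so Fgb and Fga were farther from it than these genes. Serpina10, which encodes an inhibitor of coagulation factors, had 344, 374 and 252 CPM in the HFD livers, against 366, 174 and 662 CPM in the HTG libraries.

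**Figure D5:**
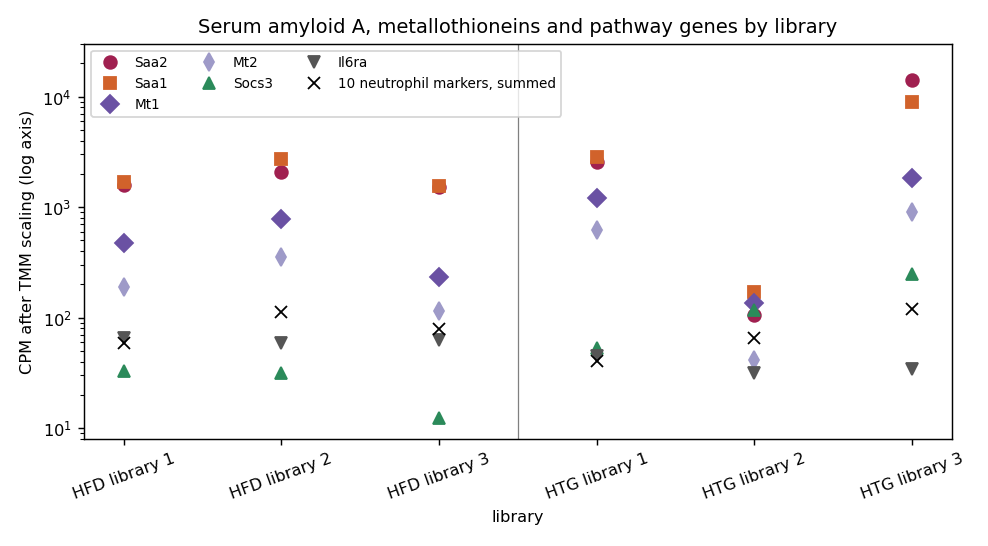
CPM after TMM scaling (log axis) in each of the 6 libraries for Saa1, Saa2, Mt1, Mt2, Socs3, Il6ra and the sum of 10 neutrophil markers. Saa1, Saa2, Mt1 and Mt2 are lowest in HTG library 2 and highest in HTG library 3, while Socs3 is above every HFD library in all 3 HTG libraries.

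Among the markers of other liver cells, the summed biliary and lymphocyte markers had the order of the acute phase genes across the HTG libraries. The 8 macrophage and Kupffer cell markers, all detected, summed to 616 to 1137.5 CPM in the HFD libraries and to 769.95, 725 and 437 CPM in HTG libraries 1, 2 and 3. The 6 biliary markers summed to between 87 and 108 CPM in the HFD libraries and to 71.6, 60.5 and 135 CPM in the HTG libraries, and their part in the result was not tested. Most of that sum was Spp1, which encodes osteopontin, at 59.6, 48.5 and 121 CPM in HTG libraries 1, 2 and 3. Krt19 (1.45, 2.08 and 1.28 CPM) and Krt7 (1.35, 1.35 and 1.13 CPM) were lowest of the HTG group in HTG library 3, and Epcam (1.90, 1.24 and 1.30 CPM) was highest in HTG library 1. Muc1 (1.10, 1.03 and 3.46 CPM) had the order of the acute phase genes. Sox9 (6.24, 6.25 and 6.98 CPM) was also highest of the HTG group in HTG library 3. The 7 stellate cell markers summed to 144 to 206 CPM and 123 to 175 CPM, the 7 sinusoidal endothelium markers to 62.4 to 154 CPM and 108 to 164 CPM, and the 6 red cell markers to 235 to 429 CPM and 259 to 485 CPM (HFD and HTG). The 7 lymphocyte markers summed to 6.46 to 11.7 CPM in the HFD livers, against 9.38, 8.84 and 9.97 CPM in HTG libraries 1, 2 and 3, and their part was not tested either. The exocrine pancreas markers Prss2, Ctrb1 and Pnlip had no more than 12 counts in any library. The same held for the adipose markers Adipoq, Plin1 and Cidea. The pancreas markers Cela1 and Cela2a were above 12 counts in all 6 libraries. Cela1 had 4.57 to 5.78 CPM in the HFD livers, against 5.38, 8.06 and 5.53 CPM in HTG libraries 1, 2 and 3. Cela2a had 1.98 to 2.85 CPM in the HFD livers, against 0.899, 1.25 and 4.95 CPM in the HTG libraries. The adipose marker Cfd had 28 counts in HTG library 1 and 0 in the others.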

How the data were processed

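The authors deposited 1 table of estimated counts and FPKM per gene for 6 liver libraries of polyadenylated RNA, read in pairs. The submitters' processing notes name HISAT2, StringTie, SAMtools and the rat build mRatBN7.2. Their versions, the annotation and any use of strand are not given in the sources used here, and the mouse build of the listed coordinates is not named. The value 4 occurred 6450 times, against 2549 for 3 and 1757 for 5, so 1 fragment was taken as 4 counts and the limit of an empty gene as 3 fragments, 12 counts. It covers counting error only. Nothing beyond the labels says how the replicates relate, so p-values measure the spread between these samples. Counts were compared with edgeR 4.0.16 (TMM, filterByExpr, quasi-likelihood test, group only, R 4.3.3), with Benjamini-Hochberg adjustment over all genes tested. Alternatives used DESeq2 1.42.0, other scalings and filters, limma 3.58.1 on log2 FPKM, a replicate block and each library left out. Counts were rounded for DESeq2 and when divided by 4. Code was tested on simulated data with 200 changed genes. The members and gene lists were chosen with earlier results of these data known. Within each wider list, the genes given with values were the most abundant by mean CPM and up to 4 with the smallest unadjusted p under 0.05. The 5 nearest profiles were named for the serum amyloid A pair and the fibrinogen chains. Hamp, Stat3, Il6, Rbp4 and Osmr fall outside this rule and were named after their values were seen. The same holds for the single hepatocyte, biliary, pancreas and adipose markers given with values. It also holds for genes named only for their order within the HTG group and for the single neutrophil markers named for their highest library. Of the annotation columns, the gene names, positions and strands were used, and the chromosome gave the mitochondrial share. No sequences were used here.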

Additional observations from a re-analysis of the deposited data

How the results depend on the processing

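No member passed an unadjusted p under 0.05 in the alternatives that kept all 6 libraries, and the number of members higher at that threshold ran from 0 to 8 when 1 library was left out, 8 being without HTG library 2. With 1 library left out, log2 fold changes ran from -0.39 to 1.56 for Saa1, -0.36 to 2.26 for Saa2, -0.46 to 1.63 for Orm2, -0.16 to 0.49 for Hpx, -0.32 to 1.25 for Lcn2 and -0.39 to 0.39 for Fga. With limma on log2(FPKM + 0.1), with or without the filter, the values were -0.29 for Saa1, -0.18 for Saa2, -0.000691 for Hpx, -0.05408 for Lcn2 and -0.23 for Fga. With log2(FPKM + 1) they were -0.28, -0.17, -0.000676, -0.04781 and -0.23. Fga was also below 0 with DESeq2 and with its size factors (-0.01688), total counts (-0.03143), no filter (-0.005426) and the replicate block (-0.16). Same-numbered libraries had correlations of -0.153, -0.121 and 0.212 between their deviations, against -0.208 to 0.318 between libraries of different numbers. No pairing was evident, and with so few libraries these values cannot exclude one. With the replicate block the median over the members was 0.277, against 0.133 with limma (0.134 with the pseudocount of 1). Over all genes, 2 had an adjusted p under 0.05, against 2401 with DESeq2, 162 without a filter, 684 with at least 10 counts in every library, 822 with counts divided by 4, 878 with limma, 884 with the pseudocount of 1, and none with total counts, unfiltered FPKM or the block. The causes were not tested. Summing several rows per symbol gave no value, since each member has 1 row. With 3 libraries a group, leaving out HTG library 3 alone turned the direction of 6 of the 10 members.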
